A study of Mus musculus with 6 samples.

Results

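A set of 10 genes that mark fat cells was followed through RNA-seq libraries of mouse gastrocnemius, the large calf muscle: Adipoq, Cebpa, Pparg, Plin1, Fabp4, Cidec, Cfd, Lep, Retn and Car3. They were chosen by symbol, each symbol matched 1 gene, and together they are 10 of the 57010 genes in the deposited count matrix. The choice was made with the difference between the groups already known, so the levels below describe the members, and their fold changes support nothing on their own. The libraries came from 3 mice homozygous for the prmd allele of the dysferlin gene Dysf (B6.A-Dysfprmd/GeneJ, called BLAJ), here called mutants, and from 3 C57BL/6 mice labelled wild type, here called controls. All 6 were 3 months old and untreated, and each animal gave 1 library. Mutants 1 and 2 were female, and mutant 3 and the 3 controls were male. Dysferlin helps torn fibre membranes to reseal, and in people its loss causes a muscular dystrophy in which fat replaces muscle.

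White adipocytes store triglyceride in a single large lipid droplet and secrete hormones and enzymes into the blood. Their differentiation is driven by the nuclear receptor Pparg and the basic leucine zipper factor Cebpa, which switch on each other and then the genes of the droplet coat, of fatty acid transport and of the secreted proteins. In muscle, adipocytes lie between the fibres and fascicles and arise from fibro-adipogenic progenitors. Several of these markers are also transcribed in other cells of the tissue: Fabp4 and Pparg in capillary endothelium and macrophages, and Car3 in muscle fibres. In bulk RNA, more adipocytes and more RNA per adipocyte cannot be told apart.

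The read pairs counted in genes ran from 35042245 to 43733641 per library, and the member with the fewest counts, Lep, had 27 in its lowest library. Counts were scaled to TMM-adjusted library size and are given as CPM, counts per 1e6. Dysf itself, which checks the labels, had 72.3, 99.8 and 145 CPM in controls 1, 2 and 3 and 15.8, 14.7 and 20.3 CPM in mutants 1, 2 and 3 (log2 fold change -2.64, SE 0.28, edgeR adjusted p = 0.0249). Xist and Ddx3y matched the labelled sex in all 6 libraries. The strain label of the controls met contrary values. Ifi202b, which C57BL/6 mice are known not to express, had no count in any mutant. In controls 1, 2 and 3 it had 7.69, 1.02 and 2.62 CPM (edgeR adjusted p = 0.321). H2-Ea-ps went the same way, with 2.37, 3.44 and 3.13 CPM in the controls and 0.0264, 0 and 0 CPM in mutants 1, 2 and 3 (edgeR adjusted p = 0.00551). Strain background and the loss of dysferlin cannot be told apart in the differences below.

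The upstream sequences of 4 members are shown because these members follow different patterns over the libraries: Adipoq and Plin1 nearly share theirs, Cebpa separates the groups, and Lep does neither. Each line gives the 250 bases before the annotated transcription start, 5′ to 3′ on the gene's strand, from RefSeq on GRCm38.p6. The counts were made on GRCm39, and no coordinates were converted. Capitals mark matches to TTGCNNAA, a core of the C/EBP site searched on both strands, or to TATAA on the gene's strand.
Adipoq, chr16:23146286-23146535, plus strand: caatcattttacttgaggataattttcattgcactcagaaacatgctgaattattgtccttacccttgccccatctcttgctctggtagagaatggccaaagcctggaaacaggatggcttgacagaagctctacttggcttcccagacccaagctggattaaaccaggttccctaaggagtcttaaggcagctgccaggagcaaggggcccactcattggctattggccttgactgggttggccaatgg
Plin1, chr7:79732777-79733026, minus strand: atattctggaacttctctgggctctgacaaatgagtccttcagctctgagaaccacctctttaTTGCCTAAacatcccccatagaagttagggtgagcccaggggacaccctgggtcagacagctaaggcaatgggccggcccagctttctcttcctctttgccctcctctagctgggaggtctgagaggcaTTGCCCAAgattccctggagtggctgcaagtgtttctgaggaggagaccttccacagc
Cebpa, chr7:35119043-35119292, plus strand: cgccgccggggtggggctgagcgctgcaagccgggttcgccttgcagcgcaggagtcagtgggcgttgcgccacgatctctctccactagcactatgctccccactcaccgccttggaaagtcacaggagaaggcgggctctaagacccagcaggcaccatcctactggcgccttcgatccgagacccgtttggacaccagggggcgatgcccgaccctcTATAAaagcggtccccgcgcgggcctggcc
Lep, chr6:29059971-29060220, plus strand: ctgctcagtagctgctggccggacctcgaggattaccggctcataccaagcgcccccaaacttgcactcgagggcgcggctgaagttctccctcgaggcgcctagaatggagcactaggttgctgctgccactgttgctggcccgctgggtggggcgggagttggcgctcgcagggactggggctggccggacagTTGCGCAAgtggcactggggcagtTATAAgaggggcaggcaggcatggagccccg

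The Lep window held the palindrome TTGCGCAA beginning 55 bases before the start and TATAA beginning 31 bases before it. Plin1 held 2 matches to TTGCNNAA, beginning 187 and 58 bases before the start, and Cebpa held TATAA at 30 bases. The Adipoq window held none of the motifs. Of the 8 members matched in the promoter table used (11 start sites in all), 4 had TTGCNNAA (Lep, Plin1, Cidec and Pparg) in at least 1 window, and 9.56% of the 32851 windows in the table had it. TATAA was found in 3 members and in 16.0% of all windows. The nuclear receptor half-site AGGTCA, searched on both strands, was found in Pparg alone and in 14.0% of all windows, and the direct repeat of that half-site with 1 base between, the form bound by PPAR with its partner RXR, in 0 members and in 0.0335% of all windows. Members with several start sites had more chances of a match than a single window. These matches are letters in a short window and not measured sites.

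Over the whole table, 31 of 15589 tested genes were called by edgeR at an adjusted p below 0.05, which is 0.199% (0.0128% higher and 0.186% lower in mutants). All 10 members had enough counts to be tested and 0 were called. At an unadjusted p below 0.05 there were 2 (Cebpa and Fabp4), against 1082 of the 15589 tested genes, DESeq2 called 1 (Cebpa, against 1.18% of all genes in that fit), and limma-voom called 0. The log2 fold change was above 0 in 9 of 10 members, with a median of 0.84, against 49.8% of all tested genes and a median of -0.00154. The groups did not overlap in 2 of 10 members, Cebpa and Fabp4, both with every mutant higher, against 5.97% of all tested genes in that direction. Since the members were chosen on this contrast, nothing is read from these shares.

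**Figure D1:**
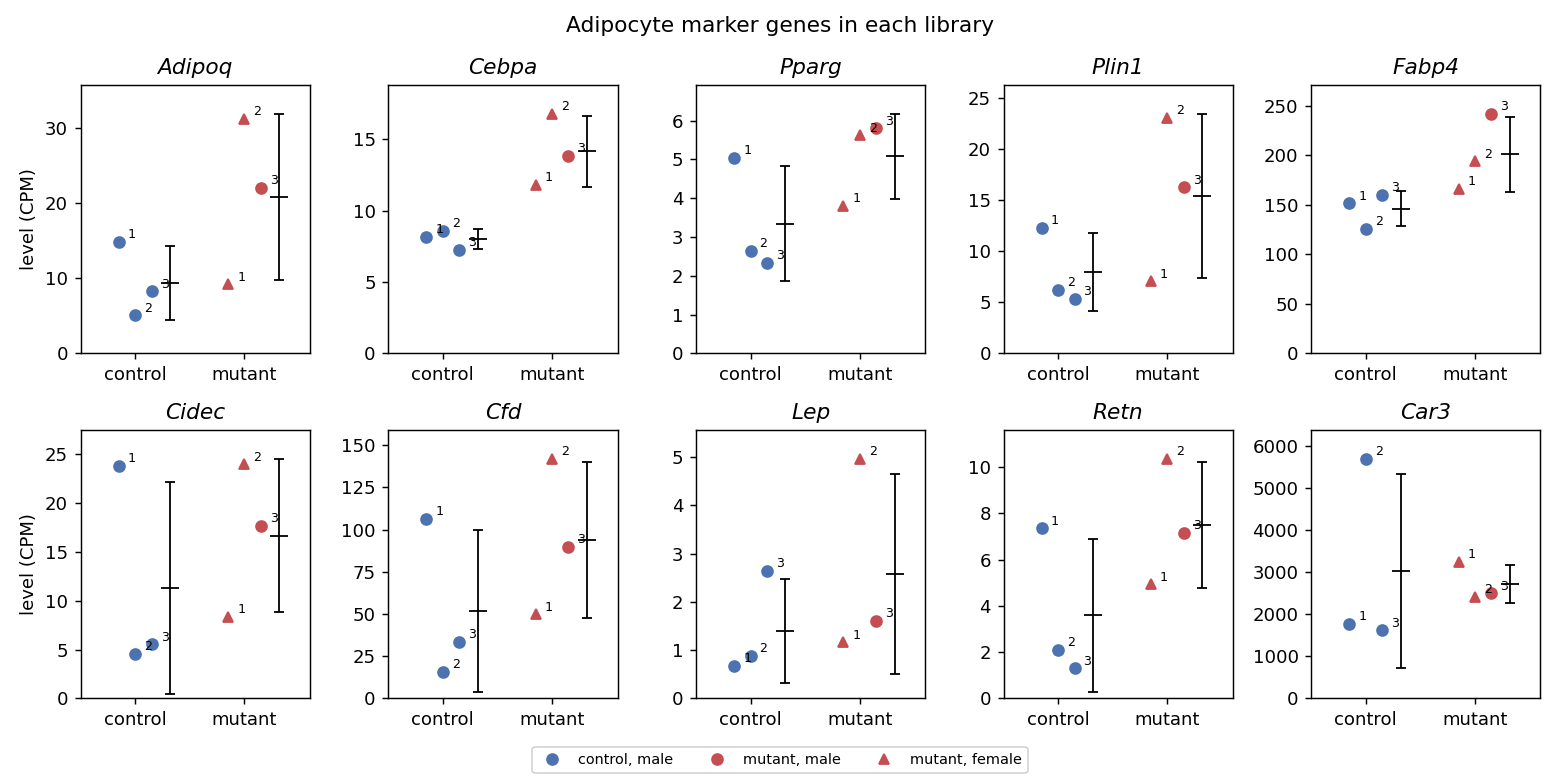
Level of each member in CPM (vertical axes, from 0) in the 3 control and 3 mutant libraries, with the replicate number beside each point, triangles for females, and the group mean with its SD as a bar. In Cebpa and Fabp4 every mutant point lies above every control point, and in the other 8 genes the groups overlap.

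Among the transcription factors, Cebpa (ENSMUSG00000034957, chromosome 7) had 8.17, 8.59 and 7.27 CPM in controls 1, 2 and 3 and 11.8, 16.8 and 13.8 CPM in mutants 1, 2 and 3. The controls lay close together and every mutant was above them. The means were 8.01 ± 0.672 and 14.1 ± 2.51 CPM (SD, n = 3 each), and the log2 fold change was 0.82 with an SE of 0.17 (edgeR adjusted p = 0.321). The authors' deposited table gives Cebpa a log2 fold change of 0.82 (SE 0.22) and an adjusted p of 0.0264, and the other 9 members an adjusted p from 0.419 upwards. Leaving out single libraries moved the Cebpa value between 0.68 and 0.94, the narrowest such range among the 10 members, just ahead of Fabp4 at 0.30 to 0.58.

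Pparg (ENSMUSG00000000440, chromosome 6), the other master regulator of adipocyte differentiation, had 5.04, 2.65 and 2.34 CPM in controls 1, 2 and 3 and 3.81, 5.62 and 5.80 CPM in mutants 1, 2 and 3. Control 1 lay above mutant 1, so the groups overlapped. Its log2 fold change was 0.60 (SE 0.34, edgeR adjusted p = 0.812), and it ran from 0.40 without control 3 to 1.02 without control 1.

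The droplet genes spread widely within each group. Plin1 (ENSMUSG00000030546, chromosome 7) codes for perilipin 1, which coats the adipocyte droplet and holds back lipolysis, and had 12.3, 6.21 and 5.34 CPM in controls 1, 2 and 3 and 7.06, 23.1 and 16.3 CPM in mutants 1, 2 and 3. Cidec (ENSMUSG00000030278, chromosome 6), whose product sits at the contact of droplets and lets small ones empty into large ones, had 23.8, 4.55 and 5.54 CPM in controls and 8.35, 23.9 and 17.7 CPM in the mutants. In both genes control 1 and mutants 2 and 3 were the 3 highest libraries, and mutant 1 came next. The log2 fold change of Plin1 was 0.96 (SE 0.49) and that of Cidec 0.56 (SE 0.71), with edgeR adjusted p = 0.785 and 0.93. With 1 library left out, the Plin1 value ran from 0.55 without mutant 2 to 1.41 without control 1. For Cidec it ran from 0.18 without control 2 to 1.72 without control 1.

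Fabp4 (ENSMUSG00000062515, chromosome 3), the fatty acid carrier of the adipocyte cytosol, had a much narrower spread: 151, 126 and 160 CPM in controls 1, 2 and 3 and 166, 194 and 242 CPM in mutants 1, 2 and 3. The lowest mutant was just above the highest control. The log2 fold change was 0.46 (SE 0.18, edgeR adjusted p = 0.677), and 0.30 without mutant 3. Its highest library was 1.92 times its lowest, the smallest such ratio among the members, against 9.0 times for Cfd.

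Of the 4 genes for secreted proteins, Adipoq, Cfd and Retn had the same 3 highest libraries as Plin1 and Cidec, with mutant 1 next. Adipoq (ENSMUSG00000022878, chromosome 16), coding for adiponectin, had 14.8, 5.08 and 8.29 CPM in controls 1, 2 and 3 and 9.20, 31.3 and 22.04 CPM in mutants 1, 2 and 3. Mutant 1 lay between the controls, and the log2 fold change was 1.15 (SE 0.53, edgeR adjusted p = 0.754), from 0.73 without mutant 2 to 1.64 without control 1. Cfd (ENSMUSG00000061780, chromosome 10), coding for adipsin, the complement factor D that adipocytes secrete, had 107, 15.8 and 33.4 CPM in controls and 49.9, 142 and 89.9 CPM in the mutants. Control 1 exceeded 2 of the 3 mutants in Cfd, whose log2 fold change was 0.86 (SE 0.72, edgeR adjusted p = 0.881), from 0.42 without control 2 to 1.93 without control 1. Retn (ENSMUSG00000012705, chromosome 8), coding for resistin, a hormone of mouse adipocytes, had 7.37, 2.11 and 1.297 CPM in controls and 4.94, 10.4 and 7.18 CPM in the mutants. The log2 fold change of Retn was 1.06 (SE 0.65, edgeR adjusted p = 0.823), from 0.66 without control 3 to 2.13 without control 1.

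Lep (ENSMUSG00000059201, chromosome 6), coding for the satiety hormone leptin, was the lowest member and followed its own order. It had 0.674, 0.884 and 2.64 CPM in controls 1, 2 and 3 and 1.16, 4.96 and 1.603 CPM in mutants 1, 2 and 3. Control 1, high in Cfd, Cidec and Retn, was the lowest library for Lep, and control 3 was the second highest. Its log2 fold change was 0.88 (SE 0.72, edgeR adjusted p = 0.873). With single libraries left out it ran from -0.02 without mutant 2 to 1.71 without control 3, so its sign rested on mutant 2. With males only, which leaves mutant 3 as the only mutant, the Lep value was 0.20. The Fabp4 value moved the other way, from 0.46 with all libraries to 0.73 with males only.

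Car3 (ENSMUSG00000027559, chromosome 3), a carbonic anhydrase abundant in both adipocytes and muscle fibres, was the only member with a negative fold change in edgeR with all 6 libraries, and its sign was positive with limma-voom (0.09). It had 1766, 5686 and 1618 CPM in controls 1, 2 and 3 and 3239, 2406 and 2498 CPM in mutants 1, 2 and 3. Control 2 stood far above all others, and the other 2 controls below all mutants. The log2 fold change was -0.16 (SE 0.49, edgeR adjusted p = 0.975) and 0.68 without control 2. Control 2 was also highest in Myh1, the myosin of fast IIx fibres, at 6039 CPM against 1010 to 3927 CPM elsewhere. This gene was picked after its values were seen, and no other fast-fibre marker read below was highest in control 2. The part of fibre make-up in the Car3 level was not tested.

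**Figure D2:**
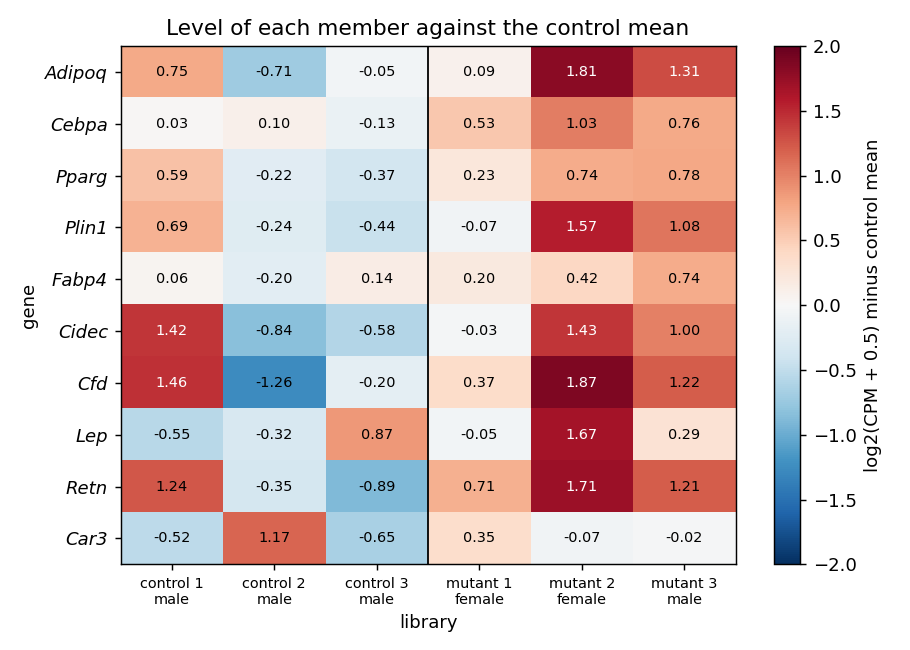
Level of each member (rows) in each library (columns) as log2(CPM + 0.5) minus the mean of the 3 controls, from blue (lower) to red (higher), with the value in each cell. Mutants 2 and 3 and control 1 are red in most rows, while mutant 1 stays near 0 in Adipoq, Plin1, Cidec and Lep, and Car3 is red in control 2.

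Read by library, mutant 2 was the highest of the 6 in 7 members and mutant 3 among the top 3 in all 10. The median over the members of log2(CPM + 0.5) above the control mean was 1.5 in mutant 2, 0.89 in mutant 3, 0.64 in control 1 and 0.21 in mutant 1, and -0.28 and -0.29 in controls 2 and 3. Control 1 thus ranked above mutant 1 by this measure, and it exceeded mutant 1 in 6 of 10 members. The lowest library was control 2 in 4 members, control 3 in 5 and control 1 in 1. Mutant 2 and mutant 1 are both female, and mutant 2 was higher in 9 of 10 members. The male mutant lay between them in 8 of 10 members and above all 3 male controls in 5 (Adipoq, Cebpa, Pparg, Plin1 and Fabp4). With males only, 3 controls and 1 mutant, the median log2 fold change of the members was 0.79. With sex as a covariate it was 0.79, which is no separate check. Since no control was female, the difference in that fit rests on mutant 3 against the 3 controls as well. Without mutant 2 the median was 0.50, and without control 1 it was 1.22.

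**Figure D3:**
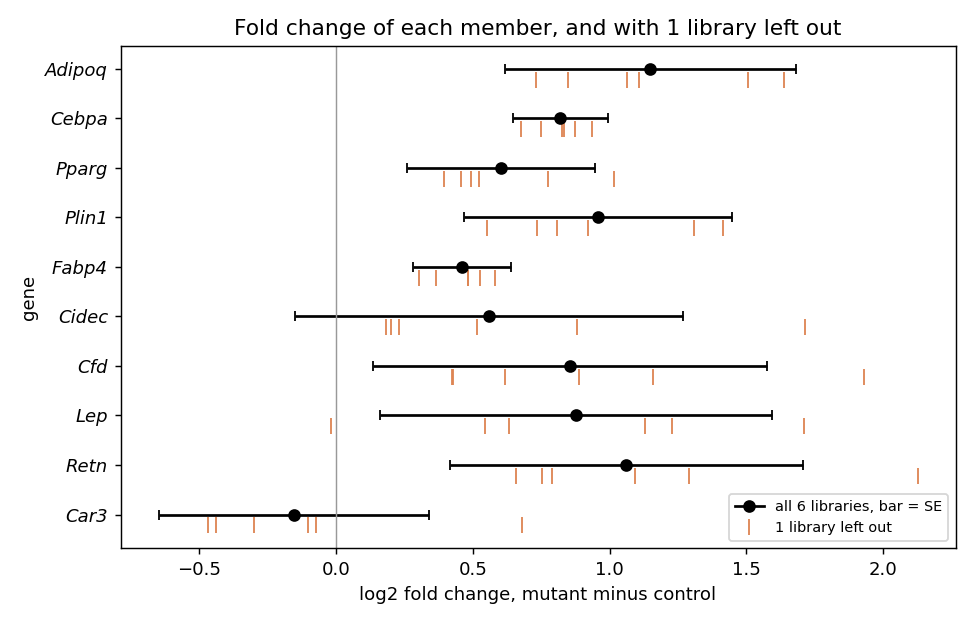
Log2 fold change of each member, mutant minus control (horizontal axis), from edgeR with all 6 libraries (black points, bars 1 SE), and with each library left out in turn (orange ticks). Cebpa and Fabp4 stay within a narrow range, Retn, Cfd and Cidec spread widely, from 0.66 to 2.13, 0.42 to 1.93 and 0.18 to 1.72, and Lep and Car3 change sign with 1 library left out.

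Per kilobase of annotated exon, the levels of the members spanned a wide range. In controls the order was Car3 at 1055 ± 805 CPM per kb (SD, n = 3), Cfd at 56.3 ± 52.2, Fabp4 at 32.5 ± 3.96, Adipoq at 6.81 ± 3.60, Cidec at 6.09 ± 5.84, Cebpa at 3.04 ± 0.255, Retn at 2.27 ± 2.09, Plin1 at 1.71 ± 0.817, Pparg at 1.13 ± 0.501 and Lep at 0.418 ± 0.323. In mutants the order was the same, from Car3 at 948 ± 159 CPM per kb to Lep at 0.768 ± 0.619. Neighbouring control means differed by less than the larger of their SDs between Cfd and Fabp4 and along the run from Adipoq to Pparg, so those places in the order are not resolved. Car3 against Cfd, Fabp4 against Adipoq and Pparg against Lep differed by more than either SD. Exon lengths and chromosomes came from GENCODE M21, which is on an older build than the one counted.

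The genes whose library pattern was most like that of Adipoq were taken from 11877 other tested genes with a mean of at least 1 CPM and a gene symbol that is no clone name. By Pearson correlation of log2(CPM + 0.5) over the 6 libraries, which share depth and dissection among all genes, the 10 most alike were Trf, Acvr1c, Lgals12, Trarg1, Zfp944, Acp5, Ppm1m, Slc1a5, Ptprr and Zfp169, with r from 0.991 to 0.964 and Spearman's rho from 0.943 to 1. After each group mean was subtracted, their r was 0.941 to 0.994, close to the values over all 6 libraries. Without the 2 libraries farthest from the Adipoq median, mutant 2 and control 2, r was 0.94 to 0.998. A correlation over 6 libraries is a description, and 14 of the 11877 genes reached 0.95.

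Of these 10, 4 are described here, picked after the list was seen. The share of genes known from fat among the 11877 candidates was not counted. Lgals12, a galectin of the lipid droplet found mainly in adipocytes, had 1.72, 0.702 and 0.966 CPM in controls 1, 2 and 3 and 1.11, 4.60 and 3.31 CPM in mutants 1, 2 and 3. Acvr1c, the activin receptor ALK7 that restrains lipolysis in adipocytes, had 1.72, 0.521 and 0.915 CPM in controls and 0.767, 3.31 and 2.47 CPM in the mutants. Trarg1, a regulator of the trafficking of the glucose transporter GLUT4, had 3.72, 2.29 and 2.57 CPM in controls and 3.33, 5.95 and 4.99 CPM in the mutants. Trf, the iron carrier transferrin, had 35.5, 15.9 and 23.5 CPM in controls and 27.4, 60.1 and 42.4 CPM in the mutants. All 4 had control 1 above mutant 1, as Adipoq had, but genes picked for their likeness to Adipoq share its order by that choice.

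Among the members themselves, r with Adipoq was 0.951 for Plin1, 0.944 for Cfd, 0.909 for Cidec, 0.891 for Pparg and 0.851 for Retn. It was lower for Fabp4 (0.8), Cebpa (0.759) and Lep (0.553), and for Car3 it was -0.472. In place among the 11877 other genes, Plin1 and Cfd would have stood 15th, Cebpa 253rd and Lep 1161st. With the group means removed, r was 0.926 for Plin1, 0.923 for Cfd, 0.602 for Cebpa and 0.408 for Lep.

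**Figure D4:**
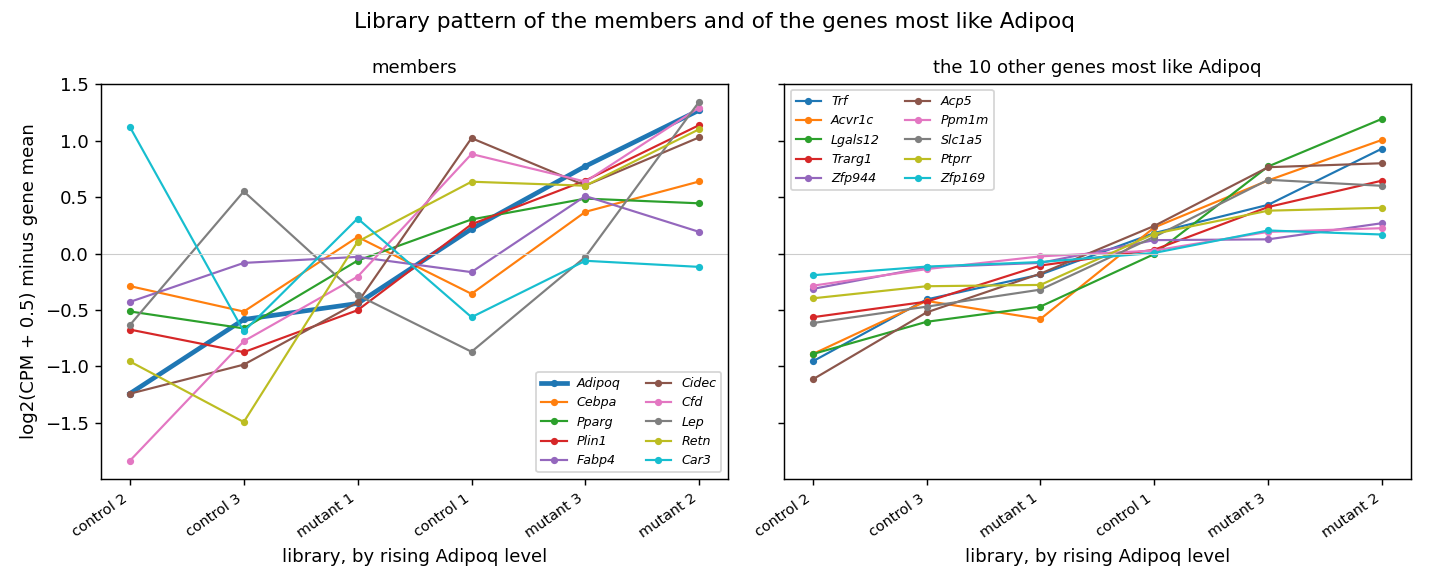
Log2(CPM + 0.5) minus the gene's mean over 6 libraries (vertical axis) for the 10 members (left, Adipoq as the thick line) and for the 10 other genes most like Adipoq (right), with the libraries ordered by rising Adipoq level. Control 1 lies to the right of mutant 1, the lines on the right rise together by the way they were chosen, and Car3 and Lep leave the common course on the left.

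The wider genes of adipocyte biology, on lists written with the members' results known, gave no calls by edgeR. Of 18 transcription factors of adipocyte differentiation, Cebpa and Pparg included, all 18 were tested, 13 were higher and 5 lower, 0 were called by edgeR (5 at an unadjusted p below 0.05, 1 by DESeq2, Cebpa, and 0 by limma-voom) and the median log2 fold change was 0.17. The counts at an unadjusted p below 0.05 in this and the following lists stand against 1082 of all 15589 tested genes. Cebpd, an early factor of the adipogenic cascade, had 13.6, 7.39 and 5.64 CPM in controls 1, 2 and 3 and 13.9, 16.9 and 25.7 CPM in mutants 1, 2 and 3. Mlxipl, the carbohydrate-response factor ChREBP, had 52.3, 44.4 and 54.5 CPM in controls and 59.3, 64.3 and 79.5 CPM in the mutants. In both genes every mutant was above every control, with log2 fold changes of 1.08 (SE 0.37) and 0.42 (SE 0.16) and edgeR adjusted p = 0.655 and 0.661. They were named for the smallest p among the list's genes that are no members, so their separation follows in part from that choice. Of all tested genes, 5.97% had every mutant higher.

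Of 14 genes for proteins that adipocytes secrete, the 4 secreted members included, 10 were higher and 4 lower, with a median of 0.52, and 0.29 over the 10 that are no members. EdgeR, DESeq2 and limma-voom called 0 of them (1 at an unadjusted edgeR p below 0.05). Nrg4, a neuregulin released by brown and white fat, had 0.450, 0.657 and 0.458 CPM in controls 1, 2 and 3 and 1.48, 2.12 and 0.560 CPM in mutants 1, 2 and 3, so the 2 females were high and the male mutant lay among the controls. Agt, angiotensinogen, had 9.09, 8.27 and 12.7 CPM in controls and 9.28, 8.41 and 6.95 CPM in the mutants.

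Of 19 genes of the droplet, lipolysis and triglyceride storage, Plin1 and Cidec included, 13 were higher and 6 lower, with a median of 0.23. Over the 17 that are no members, 11 were higher and the median was 0.22. EdgeR, DESeq2 and limma-voom called 0 of the 19 (1 at an unadjusted edgeR p below 0.05). Dgat2, which makes triglyceride from diacylglycerol, had 45.2, 23.4 and 17.6 CPM in controls 1, 2 and 3 and 72.8, 41.8 and 56.6 CPM in mutants 1, 2 and 3 (log2 fold change 0.99, SE 0.37, edgeR adjusted p = 0.677). Cavin2, a caveolar coat protein, had 58.1, 54.3 and 72.3 CPM in controls and 70.3, 73.9 and 90.9 CPM in the mutants. Unlike Plin1 and Cidec, Dgat2 was highest in mutant 1.

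Of 20 genes of lipogenesis and of fatty acid, glycerol and glucose uptake, Fabp4 included, 12 were higher and 8 lower, with a median of 0.11. Over the 19 that are no members, 11 were higher and the median was 0.0996. EdgeR called 0 of the 20, DESeq2 called 1 and limma-voom called 0. At an unadjusted edgeR p below 0.05 there were 2, Fabp4 and Gpam. Gpam, the mitochondrial enzyme that starts glycerolipid synthesis, was the DESeq2 call. It had 143, 171 and 180 CPM in controls 1, 2 and 3 and 289, 274 and 282 CPM in mutants 1, 2 and 3 (log2 fold change 0.77, SE 0.14, edgeR adjusted p = 0.205, DESeq2 adjusted p = 0.00022). Its 3 mutants lay within a narrow band well above the controls, although the same libraries ranged from 9.20 to 31.3 CPM in Adipoq. Scd2, a stearoyl-CoA desaturase, had 40.2, 101 and 42.3 CPM in controls and 26.0, 28.8 and 42.4 CPM in the mutants.

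Receptors for adipocyte hormones and receptors of adipocytes themselves gave 6 higher and 3 lower among 9 of 10 tested, with a median of 0.00890 and 0 called by edgeR, DESeq2 or limma-voom (0 at an unadjusted edgeR p below 0.05). Adrb3, the beta-3 adrenergic receptor of fat cells, had 0.849, 0.136 and 0.432 CPM in controls 1, 2 and 3 and 0.608, 2.15 and 0.916 CPM in mutants 1, 2 and 3, the same order of libraries as Adipoq. Lepr, the leptin receptor, had 4.55, 3.67 and 4.37 CPM in controls and 5.31, 4.55 and 6.36 CPM in the mutants. Of 10 genes of brown and beige adipocytes, 9 were tested, 6 were higher and 3 lower, with a median of 0.37 and 0 called by edgeR, DESeq2 or limma-voom (1 at an unadjusted edgeR p below 0.05). The defining gene Ucp1 had no count in any mutant or in control 1, and had 0.997 and 0.153 CPM in controls 2 and 3. Zic1, a developmental factor of classical brown fat, had 0.425, 0.159 and 0.127 CPM in controls and 0.582, 0.579 and 0.814 CPM in the mutants. Fabp3, the fatty acid carrier of muscle and brown fat, had 263, 157 and 206 CPM in controls and 325, 178 and 387 CPM in the mutants.

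Marker lists of other cells were read beside the members, and edgeR, DESeq2 and limma-voom called 0 genes in each, apart from Hba-a2 among red blood cell genes by DESeq2. At an unadjusted edgeR p below 0.05 there was 1 gene each among the progenitor, endothelial and red blood cell genes and 0 among the macrophage, fibre and nerve genes. Markers of fibro-adipogenic progenitors, from which muscle fat arises, summed to 672 to 826 CPM in controls and to 533 to 903 CPM in mutants, with 6 of 10 higher. Mutant 2, the highest in most adipocyte markers, was the lowest of all libraries in this sum. Its Dcn, the most abundant marker, had 312 CPM against 388 to 458 CPM elsewhere. Mutant 2 was not the lowest in every progenitor marker, with Ly6a at 53.7 CPM against 24.2 CPM in control 2. Endothelial markers summed to 364 to 419 CPM in controls and 403 to 567 CPM in mutants, with 11 of 12 higher and a median of 0.24. The highest library for both this sum and Fabp4 was mutant 3, with Cdh5 at 105 CPM against 62.5 to 76.9 CPM elsewhere, and the part of endothelium in the Fabp4 difference was not tested. Macrophage markers summed to 124 to 199 CPM in controls and 145 to 248 CPM in mutants, with 10 of 12 higher, and Lyz2 was highest in mutant 1 at 103 CPM, the mutant with the lowest Adipoq.

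Slow-fibre markers summed to 3651, 1960 and 649 CPM in controls 1, 2 and 3 and to 4501, 1213 and 3243 CPM in mutants 1, 2 and 3, with all 8 higher and a median of 0.57. The order differed from that of Adipoq, since mutant 1 was highest and mutant 2 among the 2 lowest, and from that of Car3. The most abundant of these markers, Atp2a2, had 222 to 1169 CPM in controls and 365 to 1102 CPM in mutants. Fast-fibre markers summed to 124970 to 173040 CPM in controls and 134470 to 156540 CPM in mutants, with 5 of 10 higher and a median of -0.01, and Myh4, the myosin of fast IIb fibres, had at least 44458 CPM in every library, as gastrocnemius is known to be a fast muscle. Peripheral nerve markers summed to 202, 419 and 125 CPM in the controls and to 146, 251 and 573 CPM in the mutants, with 7 of 9 higher, and red blood cell genes to 772, 2068 and 982 CPM in the controls and 1526, 1368 and 2028 CPM in the mutants, with all 7 higher. The most abundant red blood cell gene, Hbb-bs, had 472 to 1279 CPM over the 6 libraries. How much the make-up of the dissected piece contributed to the members' levels was not tested.

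**Figure D5:**
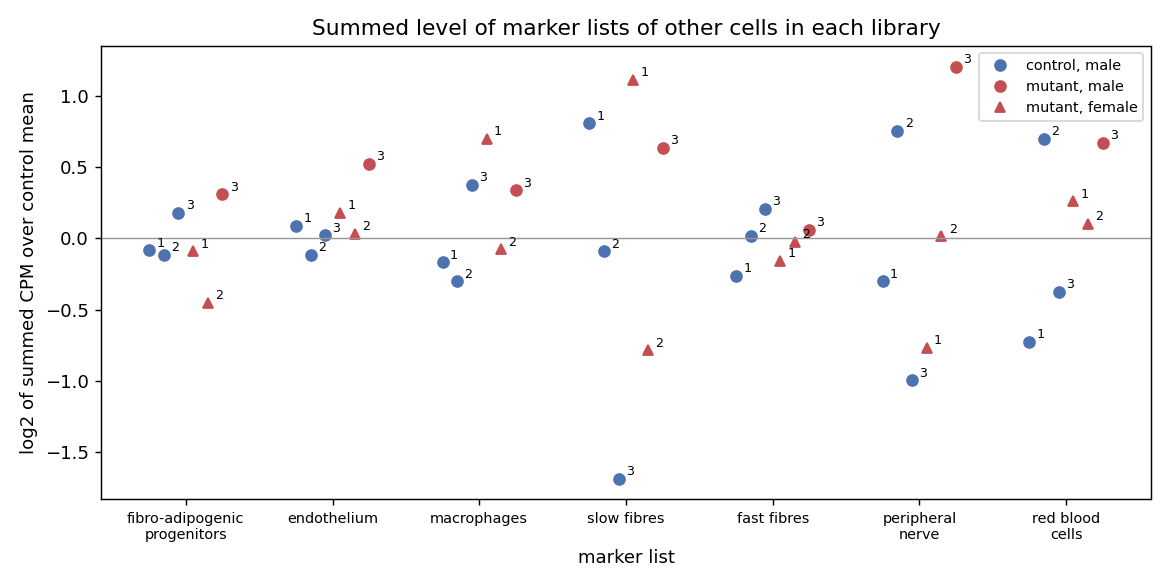
Log2 of the summed CPM of each marker list over its control mean (vertical axis) for 7 kinds of cell (horizontal axis), 1 point per library with its replicate number, triangles for females. Mutant 2, the highest library for most adipocyte markers, has the lowest progenitor sum, to which Dcn adds the most. Slow-fibre and nerve sums spread widely within both groups.

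Few pairs lay opposite to the members, but counting by strand raised the counts of Car3 and Cebpa. Of pairs assigned to a strand, at most 0.468% over all libraries lay on the strand opposite to a member. Counting by strand gave Car3 19.3% and Cebpa 6.75% more pairs than the deposited unstranded count and moved the other 8 by less than 0.5%. On those counts the Cebpa log2 fold change was 0.81 and that of Car3 -0.19. None of the 61-base words in the members' annotated transcripts occurred in a transcript of another gene. Only identical words in annotated transcripts were searched, so copies with scattered mismatches or without annotation would have been missed. Of the 10 members, 3 (Pparg, Cidec and Lep) lie on chromosome 6, which also holds Dysf, and whether they lie on the A/J segment of the BLAJ line was not tested.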

How the data were processed

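RNA was poly(A)-selected from frozen gastrocnemius and made into directional libraries read as paired ends, per the labels' protocols. The deposited matrix holds raw counts of read pairs for each gene, equal to the unstranded count in all 6 per-library files. The submitters' processing notes name STAR 2.7.11b, DESeq2 1.50.2 and GRCm39. The annotation release is not named in the labels. The authors' deposited table gives log2 fold changes and adjusted p-values. Entries that name no gene (18.5% to 22.3% of pairs) were left out. Counts were tested with edgeR 4.0.16 in R 4.3.3 (TMM, filterByExpr, robust quasi-likelihood F-test, no covariate, Benjamini-Hochberg over 15589 genes), with the SE taken as the fold change over the root of F. Alternatives were RLE, no scaling, other filters, DESeq2 1.42.0, limma-voom (limma 3.58.1), strand-matched counts, sex, replicate block, males only and each library left out. Counts were also simulated for 15589 genes of this comparison, with changes put on genes drawn at random. There edgeR recovered 31.3% of genes changed 2-fold, 75.4% at 4-fold and 93.8% at 8-fold, and it called 13 unchanged genes. Symbols came from GENCODE M21 and matched 52029 of 57010 IDs. Named are the members, the 2 smallest p per adipocyte list, the most abundant marker of other lists (1 is not reported here) and the 10 genes most like Adipoq. The members and lists were chosen with earlier results of these data known. Libraries of 1 group came from separate animals, and no pair agreed within sampling noise (chi-square at least 55.2 per degree of freedom). At this depth 3 counts are 0.0686 to 0.0856 CPM, counting error only. Plots used matplotlib 3.10.9.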

Additional observations from a re-analysis of the deposited data

How the results depend on the processing

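The number of genes called over the whole table, 31, became 79 with no filter on low counts, 184 with DESeq2, 11 with the replicate block, 0 with sex as a covariate (882 at an unadjusted edgeR p below 0.05) and 0 with males only (594), and ran from 6 to 49 with single libraries left out. The members called were 0 in every alternative run except DESeq2, with 1 (Cebpa). Car3 changed sign with limma-voom (0.093), the replicate block (0.11) and without control 2 (0.68; range over left-out libraries -0.47 to 0.68), and Lep without mutant 2 (-0.017; range -0.017 to 1.71), and the cause was not tested. The median over the members stayed above 0 in every alternative, from 0.50 to 1.22. In the runs with sex as a covariate and with males only, the difference rests on mutant 3 alone among the mutants. The replicate numbers were not taken to pair the libraries, since deviations of same-numbered libraries correlated at 0.227, -0.0572 and 0.22, and not every library correlated best with its own number. With 3 animals a group, most of the 2-fold changes put on genes in the simulation were missed. Those genes were drawn at random over the whole table, so the simulation does not measure how often differences of the members would be called.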

Other observations

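Lymphocyte genes, read because lymph nodes lie in fat near muscle, had 6 of 9 genes tested, 1 higher and 5 lower, with 0 called by edgeR, DESeq2 or limma-voom (0 at an unadjusted edgeR p below 0.05). Ighm, the heavy chain of immunoglobulin M, stood at 275, 5.96 and 43.2 CPM in controls 1, 2 and 3 and at 19.4, 17.2 and 16.6 CPM in mutants 1, 2 and 3. Cd79a, a part of the B cell receptor, had 0.350, 0.793 and 0.686 CPM in controls and 0.634, 0.469 and 0.254 CPM in the mutants. Cd3e, another gene of the list picked after its values were seen, was highest in control 1. It had 1.15 CPM there against 0.509 to 0.861 CPM elsewhere. Control 1, the highest library for Ighm, was also high in Cfd, Cidec and Retn, and whether these belong together was not tested.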
